A study of Mus musculus with 58 samples.

Results

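The genes described here are those for which probe sets of the same gene moved by different amounts in quadriceps muscle of Mbnl1-null mice. A probe set is a group of short array probes that reads one stretch of a transcript, mostly near a 3' end, so a gene can have several. Probe sets with exactly 1 gene symbol and a mean log2 intensity of at least 7 over the 5 wild types of the Mbnl1-null experiment were kept, and genes with 2 or more such probe sets were compared. A gene was a member when the mean log2 difference, 5 Mbnl1-null minus 5 wild-type mice, was at least 1 larger for its highest than for its lowest probe set. This difference between highest and lowest is called the spread below. The rule found 54 genes of 2616 that could be compared (2.06%), with 156 probe sets between them. The members were thus chosen by the Mbnl1-null minus wild-type differences, so those differences are given as description, and tests are given in other mice.

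The study profiled quadriceps of 34 male mice on 58 Affymetrix arrays. The Mbnl1-null experiment held 5 Mbnl1-null mice on FVB background and 5 FVB wild types, all 3 months old, on the 430 2.0 array. A first experiment, on the array pair 430A and 430B, held 6 mice each of the CUGexp transgenic lines 20b and 41 and 6 FVB wild types, all 6 months old. Both lines carry a human skeletal actin transgene with an expanded CUG repeat, whose promoter is active in skeletal muscle, and each is 1 line of its own. A further experiment, on the same array pair, held 3 Clcn1-null mice on BALB background, a model of myotonia without repeat RNA, and 3 BALB wild types, all 3 months old. No treatment other than the genotype was given. The modifications were constitutive per the labels, so Mbnl1-null and Clcn1-null muscle carried its genotype from the start of development.

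Mbnl1 encodes an RNA-binding protein that steers alternative splicing, and also the choice of polyadenylation site, as muscle passes from its fetal to its adult set of isoforms. Expanded CUG repeat RNA binds this protein and draws it away from its other targets, which is a central event in myotonic dystrophy. When an exon or a 3' end is exchanged, probe sets that read the shared part of the transcripts can stay level while those that read one version rise or fall. Loss of the chloride channel Clcn1 makes muscle fibres myotonic by another route.

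Array medians differed between experiments. The Mbnl1-null experiment had median intensities of 9.559 to 11.62. On 430A they were 398.4 to 437.8 in the experiment on the lines and 298.5 to 317.3 in the Clcn1-null experiment. On 430B they were 30.2 to 34.39 for the lines and 22.35 to 27.91 for Clcn1-null, so levels were not compared between experiments. The 6 skeletal muscle markers examined were above the detection floor in every group. Mbnl1 itself had 1 probe set over the level limit (1416904_at), with a log2 intensity of 13.08 ± 0.12 in Mbnl1-null and 13.81 ± 0.05 in wild types (SD, n = 5 each). The files do not say which exon it reads, so it is no check of the knockout. Mbnl2, the closest relative, had 4 probe sets over the limit with differences of -0.54 to -0.09, too close together for membership. Clcn1 had 1 probe set, with a difference of -1.11. Among wild types of the experiment on the lines, mice 1 and 2 stood apart in slow-fibre genes (below). Pair changes of members on one array are given without them wherever that changed a call. Of the 156 probe sets of members, 90 were called in line 20b with all wild types and 83 without these 2. In line 41 it was 44 and 36. Over all probe sets tested, 4603 of 27330 were called in line 20b with all wild types and 3793 of 27579 without these 2. In line 41 these counts were 2315 and 1433. Single probe sets are given with all wild types only, and pairs across arrays were not fitted without the 2 mice.

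In Mbnl1-null muscle the spreads ran from 3.86 in Tpm3 to 1.01 in Tmpo, with a median of 1.30, against a median of 0.13 over the other genes compared. It was at least 2 in 6 members and at least 1.5 in 16. In 51 of 54 members, the highest minus the lowest probe set, hereafter the pair difference, did not overlap between the 5 Mbnl1-null and the 5 wild-type mice, as it did not in 9.48% of all 2616 genes. The rule used these values, so nothing is read from that count. The standard error of the spread was 0.08 to 0.67, with a median of 0.21. The probe set farther from 0 was the lower one in 33 members (61.1%), close to the 60.5% of other genes. In 8 members one probe set was over 0.5 higher while another was over 0.5 lower. Those 8 members were Ighm, Fbxl17, Nin, Kcnc1, Reep5, Srpk2, Hcfc2 and Ppp2r5c.

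**Figure D1:**
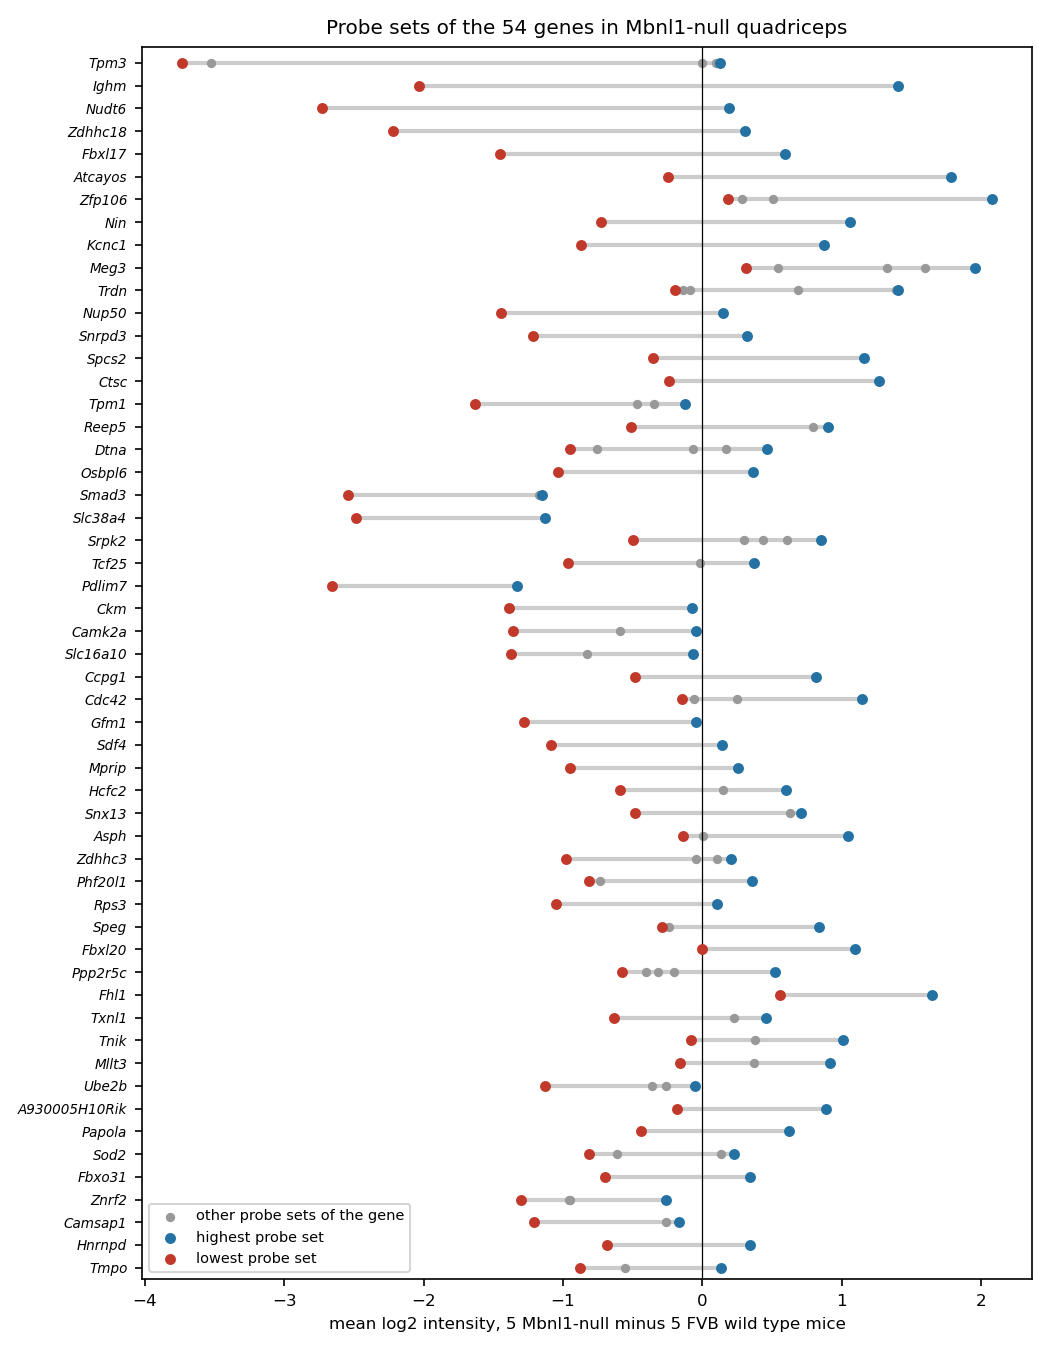
Each row is 1 of the 54 genes and each point is 1 probe set. The horizontal axis is the mean log2 intensity of 5 Mbnl1-null minus 5 FVB wild-type mice. Red marks the lowest, blue the highest and grey any other probe set of the gene, and rows run from the largest spread (Tpm3, 3.86) to the smallest (Tmpo, 1.01). In 8 rows the ends lie more than 0.5 from 0 on opposite sides.

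The members nearest the limit show how gradual it was. Just inside lay Znrf2 (1.04), Camsap1 (1.04), Hnrnpd (1.03) and Tmpo (1.01). Just outside lay Ints6 (0.99), Agpat3 (0.99), Uhrf1bp1l (0.98) and Amz2 (0.98). A gene with more probe sets had more chances to reach the limit, and 48.1% of members had exactly 2, against 66.7% of the other genes. The 2 probe sets of a member rarely came from one target accession, in 3 of 49 with both known (6.12%), against 913 of 2112 other genes (43.2%). They lay on 1 array type in 33 members (61.1%), against 83.7% of other genes, and on different ones in 21. Probe sets whose name ends in _x_at or _s_at, which may read related genes too, were part of the pair in 15 members (27.8%), against 37.4% of other genes. Members and other genes had 2 or more curated RefSeq transcripts in 63.0% and 54.4%.

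The same pair difference was then tested in lines 20b and 41, whose mice played no part in the choice. For the 33 members with both probe sets on one array type, the pair difference of each mouse was fitted with limma. All 2173 such pairs were fitted, each array type on its own, and p-values were adjusted over all of them together. The pair change is the line's mean minus the wild-type mean. A positive pair change means the direction of Mbnl1-null. In line 20b, 27 of 33 members changed in that direction and 0 in the other (limma, adjusted p under 0.05), where 11.8% of all pairs tested did so and 1.29% went the other way. In line 41, 18 of 33 changed in that direction and 0 in the other, against 12.6% and 4.92% of all pairs tested. At an unadjusted p under 0.05 these counts were 32 and 0 in line 20b, against 20.7% and 4.28% of all pairs, and 23 and 0 in line 41, against 21.4% and 10.7%. The 2 lines share their wild types, so these counts are not independent of each other.

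The median pair change of the 33 members was 1.06 in line 20b and 0.46 in line 41, against 0.064 and 0.048 for the other pairs. It was positive in 32 of 33 members in line 20b, against 64.3% of the other pairs, and in 28 of 33 in line 41, against 59.6%. In 24 of 33 members, all 6 line 20b mice lay above all 6 wild types, which held for 7.32% of all pairs tested. In line 41 this was so for 10 of 33, against 4.46%. Across the 33 members, the size of the spread in Mbnl1-null and the pair change had a Pearson's r of 0.29 in line 20b and 0.18 in line 41. Over the other 2140 genes it was 0.51 and 0.26, all as a description over genes that share the same arrays.

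**Figure D2:**
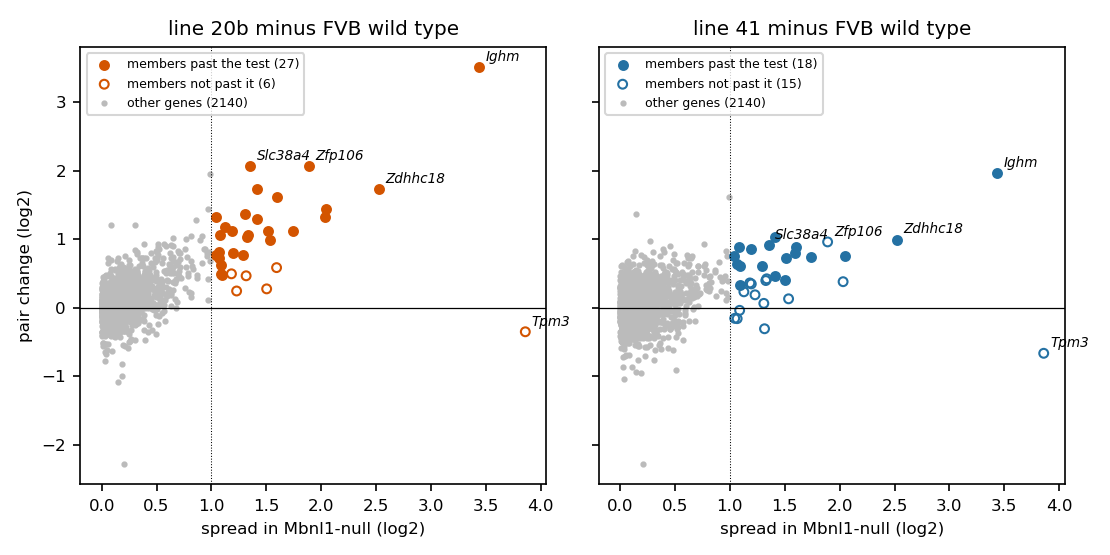
Each point is 1 gene with both probe sets on one array type. The horizontal axis is its spread in Mbnl1-null (log2), with the limit of 1 dotted, and the vertical axis is its pair change in line 20b (left) or line 41 (right). Filled points are members past the test (27 of 33 in line 20b and 18 of 33 in line 41), open points members not past it, and grey points the other 2140 genes. Ighm lies highest in both panels and Tpm3 lies below 0 in both.

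The remaining 21 members had their probe sets on different arrays, where array effects of 430A and 430B enter the difference. With such pairs added, 49 of 54 members changed in the Mbnl1-null direction in line 20b, where 13.9% of all 2611 pairs did, and 31 of 54 in line 41, also against 13.9%. Values given below for members on 2 arrays are from that fit. When each gene was read by its 2 brightest probe sets alone, 18 of 36 members passed in the Mbnl1-null direction in line 20b, against 8.63% of all 2189 such pairs, and 13 in line 41, against 11.1%.

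The largest spread belonged to Tpm3, the tropomyosin gene of slow fibres, which also makes shorter cytoplasmic forms from a second start. RefSeq (GRCm38.p6) gives start windows of 250 bases before to 50 bases after each gene start, and Tpm3 has 2 on chromosome 3, 6870 bases apart. They are shown because the gene's transcripts differ from their first exon on, with the E-box letters CAGCTG (a sequence bound by myogenic factors, read the same on both strands) in capitals where found.

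Tpm3 upstream start (chr3:90072401-90072700, plus strand): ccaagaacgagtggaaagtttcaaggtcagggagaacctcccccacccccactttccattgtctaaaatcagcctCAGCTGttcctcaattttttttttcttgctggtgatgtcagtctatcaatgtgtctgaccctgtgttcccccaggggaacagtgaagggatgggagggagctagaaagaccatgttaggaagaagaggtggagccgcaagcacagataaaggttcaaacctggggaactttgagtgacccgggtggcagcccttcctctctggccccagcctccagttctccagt

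Tpm3 downstream start (chr3:90079271-90079570, plus strand): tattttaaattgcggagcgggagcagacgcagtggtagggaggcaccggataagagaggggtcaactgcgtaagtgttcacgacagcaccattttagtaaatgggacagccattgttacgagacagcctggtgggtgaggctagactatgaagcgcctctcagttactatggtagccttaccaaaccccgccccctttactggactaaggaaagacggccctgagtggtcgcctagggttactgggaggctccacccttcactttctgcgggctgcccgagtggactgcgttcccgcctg

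CAGCTG was found 1 time in the upstream window and 0 times in the downstream one, and 16.3% of all 32851 such windows hold it. The letters TATAAA, the core of the TATA box, and CATTCC, the MCAT element of muscle genes, searched on both strands, were in neither window, against 13.6% and 14.7% of all windows. No match says only that these letters are not in the window, and the files do not place the probe sets on either transcript.

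Of the 5 Tpm3 probe sets, the 2 that share a RefSeq transcript as target accession were far lower in Mbnl1-null, and the other 3 were not. The log2 intensity of 1449997_at was 7.43, 9.88, 9.91, 6.54 and 7.91 in Mbnl1-null mice, against 12.40, 12.20, 12.20, 11.55 and 11.97 in wild types. That of 1449996_a_at was 8.58, 10.55, 10.86, 7.68 and 8.75 in Mbnl1-null mice, against 13.14, 12.95, 12.92, 12.29 and 12.73 in wild types. No Mbnl1-null mouse reached the lowest wild type on either. The probe set 1427567_a_at had 8.48, 8.46, 8.16, 7.94 and 8.12 in Mbnl1-null mice, against 7.79, 8.20, 8.27, 8.26 and 8.01 in wild types, and 1427260_a_at and 1436958_x_at differed by 0.10 and -0.004. Those 3 overlapped between the groups.

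Slow-fibre genes were lower in sum in the same mice. The summed intensity of 5 slow-fibre markers (Myh7, Tnnt1, Tnni1, Myl2 and Myl3) was 3365, 14985, 17523, 2116 and 18807 in Mbnl1-null mice 1 to 5, against 33515, 34249, 35941, 26199 and 37278 in wild types 1 to 5. All 5 Mbnl1-null mice were lower, and the mouse with the lowest sum, mouse 4, also had the lowest 1449997_at. The order of the sums did not hold throughout, since mouse 5, with the largest sum of the 5, had a lower 1449997_at than mice 2 and 3. The order differed by marker. Log2 intensity in mice 1 to 5 was 6.17, 9.79, 9.93, 2.09 and 8.71 for Myh7. For Tnnt1 it was 8.07, 9.92, 10.05, 6.46 and 9.59. The Myh7 value of mouse 4 lay under the floor of 5. Both markers ranked the mice as 1449997_at did, while Tnni1, Myl2 and Myl3 were each highest in mouse 5. Myl3 overlapped between the groups, and the other markers did not. It had 11.32, 13.11, 13.51, 10.61 and 13.53 in Mbnl1-null mice, against 13.52, 13.45, 13.61, 13.08 and 13.70 in wild types. In a muscle sample, fewer cells of a type and less RNA per cell cannot be told apart, and the part of slow fibres in the Tpm3 spread was not tested.

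In the lines Tpm3 did not pass the test. Its pair change came to -0.35 ± 0.50 (adjusted p = 0.725) in line 20b and -0.66 ± 0.50 (adjusted p = 0.37) in line 41, and without wild types 1 and 2 it was 0.69 ± 0.28 (adjusted p = 0.13) and 0.38 ± 0.28 (adjusted p = 0.434). Lowest, median and highest pair difference were -4.16, -3.17 and -2.28 in line 20b, -4.28, -3.26 and -2.90 in line 41 and -4.32, -3.58 and -0.19 in wild types. The slow-fibre sum had a lowest, median and highest value of 14966, 29954 and 44324 in line 20b, 25064, 37113 and 54124 in line 41, and 1765, 40135 and 56387 in wild types, whose lowest values, 1765 and 10377, were those of mice 2 and 1. In the Clcn1-null experiment, 1449997_at differed by -3.35 ± 0.63 (adjusted p = 0.0414) and 1449996_a_at, at -2.79 ± 0.22 (adjusted p = 0.00574), so both fell. There the slow-fibre sum was 7746 to 15974 in Clcn1-null mice and 40202 to 49805 in BALB wild types. The Tpm3 pair change in Clcn1-null was 3.28 ± 0.66 (adjusted p = 0.068) and did not pass.

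**Figure D3:**
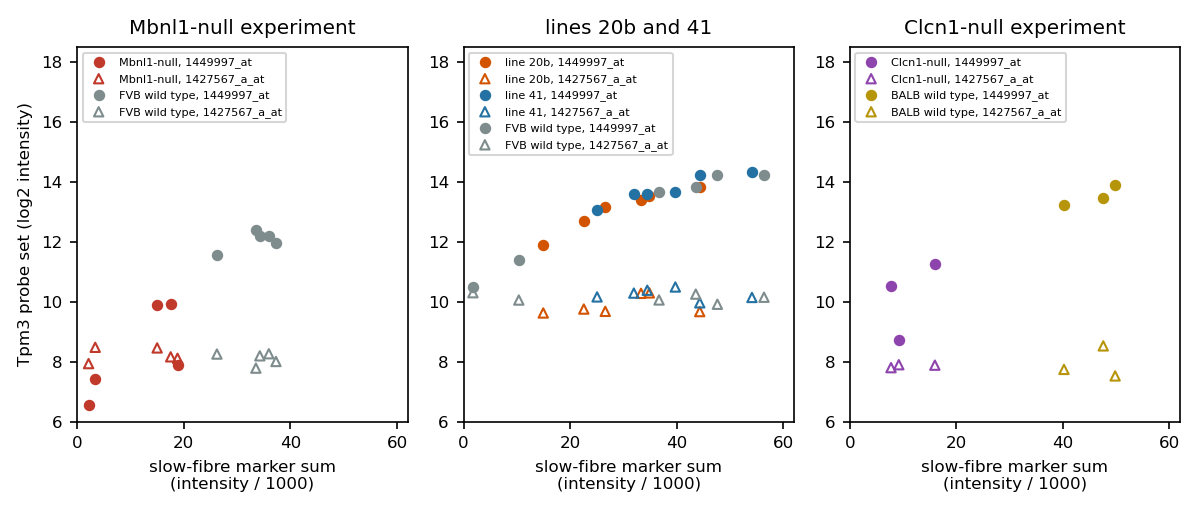
Each mouse is plotted by its slow-fibre marker sum (horizontal, summed intensity in units of 10 to the third power) and its log2 intensity on 2 Tpm3 probe sets, 1449997_at (filled circles) and 1427567_a_at (open triangles), in the Mbnl1-null, the line and the Clcn1-null experiment. The circles of wild types lie above those of Mbnl1-null and of Clcn1-null mice, while in the middle panel circles of all 3 groups interleave. Wild types 1 and 2 of the middle panel lie at sums of 10377 and 1765.

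Among the other 8 members of sarcomere and cytoskeleton, Pdlim7, a PDZ and LIM domain protein of the Z disc, was lower on both probe sets, by unequal amounts. The log2 intensity of 1417959_at was 10.48, 10.98, 10.79, 11.10 and 10.49 in Mbnl1-null mice, against 13.37, 13.33, 13.46, 13.46 and 13.52 in wild types. On 1428319_at it was 8.24, 8.10, 7.97, 7.92 and 7.53 in Mbnl1-null mice, against 9.02, 9.14, 9.63, 9.40 and 9.24 in wild types. The groups did not overlap on either, and the brighter probe set differed by -2.66, the dimmer by -1.33. Both fell in line 20b, at -2.01 ± 0.13 (adjusted p = 6.57e-09) and -0.97 ± 0.20 (adjusted p = 0.00196), and the pair change was 1.04 ± 0.22 (adjusted p = 0.00164). In line 41 only the brighter one passed the test, with -0.86 ± 0.13 (adjusted p = 3.74e-04), and the pair change of 0.40 ± 0.22 (adjusted p = 0.216) did not.

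Tpm1, the tropomyosin gene best known from fast and cardiac muscle, differed most on its dimmest probe set. That probe set, 1456623_at, had 6.69, 6.55, 5.90, 6.51 and 6.17 in Mbnl1-null mice, against 7.75, 8.08, 8.14, 8.09 and 7.91 in wild types. The bright 1423049_a_at differed by -0.13, and the other 2 by -0.47 and -0.35. The pair change stood at 0.28 ± 0.13 (adjusted p = 0.181) in line 20b, or 0.43 ± 0.12 (adjusted p = 0.0278) without wild types 1 and 2, and 0.41 ± 0.13 (adjusted p = 0.0303) in line 41.

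Dtna encodes alpha-dystrobrevin, a member of the dystrophin complex whose splicing MBNL1 is known to control. Its 5 probe sets ran from -0.95 to 0.46. The lowest, 1456069_at, had 7.97, 8.13, 7.42, 7.83 and 7.58 in Mbnl1-null mice, against 8.84, 8.92, 8.61, 8.90 and 8.43 in wild types, and the highest, 1425292_at, had 9.99, 10.03, 9.61, 9.86 and 9.44 in Mbnl1-null mice, against 9.29, 9.20, 9.44, 9.53 and 9.16 in wild types. The pair difference was 2.02, 1.89, 2.19, 2.03 and 1.86 in Mbnl1-null mice, against 0.45, 0.27, 0.84, 0.63 and 0.73 in wild types. In the experiment on the lines, the lowest, median and highest pair difference was 1.36, 1.65 and 1.78 in line 20b, 0.53, 0.85 and 1.47 in line 41 and -0.72, 0.01 and 0.15 in wild types. All 6 mice of either line exceeded all wild types, and the pair change was 1.73 ± 0.15 (adjusted p = 4.55e-09) in line 20b and 1.03 ± 0.15 (adjusted p = 2.65e-05) in line 41. In line 20b both ends moved, with -0.83 ± 0.12 (adjusted p = 6.88e-05) for the lowest and 0.91 ± 0.08 (adjusted p = 2.95e-07) for the highest.

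Fhl1, a LIM-domain protein of muscle, was higher on both probe sets, by 1.65 on the dim 1459003_at and 0.56 on the bright 1417872_at. In line 20b both rose, by 2.00 ± 0.45 (adjusted p = 0.00449) and 0.77 ± 0.13 (adjusted p = 2.41e-04). Nin encodes ninein, which anchors microtubules. Its probe set 1419078_at was higher, by 1.06, and 1428600_at lower, at -0.73. The pair change was 1.85 ± 0.16 (adjusted p = 9.71e-09) in line 20b and 1.06 ± 0.16 (adjusted p = 8.27e-05) in line 41, and each probe set passed its own test in both lines and in the same 2 directions.

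Cdc42, a small GTPase that organises actin, had 3 bright probe sets within 0.25 of 0 and a dim one, 1435807_at, that was higher by 1.15. That probe set had 9.98, 9.09, 9.12, 9.34 and 8.13 in Mbnl1-null mice, against 8.21, 8.23, 8.01, 7.90 and 7.57 in wild types, and the groups overlapped. It rose by 0.63 ± 0.10 (adjusted p = 2.19e-04) in line 20b and 0.37 ± 0.10 (adjusted p = 0.0281) in line 41. Mprip, which links myosin phosphatase to actin, was lower on 1456763_at, at -0.95, and its pair change was 0.74 in line 20b (adjusted p = 6.52e-05). Camsap1, a protein of microtubule ends, was lower on 1456930_at, at -1.21, and that probe set fell in line 20b, at -0.55 ± 0.09 (adjusted p = 3.18e-04) and in line 41, at -0.42 ± 0.09 (adjusted p = 0.00729). Of the 5 sarcomere and cytoskeleton members on one array, 3 passed the test in line 20b and 3 in line 41, against 11.8% and 12.6% of all pairs tested.

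The next 9 members belong to the triad, where calcium release is coupled to excitation, to excitation itself or to the reticulum. Trdn encodes triadin, which ties the calcium release channel to the junctional membrane, and had 6 probe sets. The 3 brightest differed by -0.20, -0.14 and -0.09. The probe set 1451801_at had 12.12, 11.09, 11.80, 12.12 and 11.26 in Mbnl1-null mice, against 10.14, 10.25, 10.52, 10.33 and 10.14 in wild types, and 1426134_at had 9.59, 8.36, 8.45, 9.34 and 9.05 in Mbnl1-null mice, against 7.39, 7.19, 7.93, 7.79 and 7.55 in wild types. Both were higher in every Mbnl1-null mouse than in any wild type, by 1.40 and 1.39. The sixth, 1451940_x_at, was higher by 0.68. The 3 brightest share one triadin clone as target accession, and the other 3 come from 2 other clones. In the lines, the lowest, median and highest Trdn pair difference was -1.86, -1.76 and -1.57 in line 20b, -2.96, -2.42 and -2.10 in line 41 and -3.56, -3.34 and -3.19 in wild types. The pair change came to 1.62 ± 0.11 (adjusted p = 8.21e-11) in line 20b and 0.88 ± 0.11 (adjusted p = 7.47e-06) in line 41, with no overlap with wild types in either. In line 20b 1451801_at rose by 1.52 ± 0.10 (adjusted p = 7.26e-09), while 1426142_a_at, at -0.10 ± 0.05 (adjusted p = 0.253), did not pass.

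Asph, whose locus encodes aspartate beta-hydroxylase and the triad protein junctin, had a dim probe set, 1426015_s_at, with 9.01, 8.71, 8.05, 8.61 and 7.39 in Mbnl1-null mice, against 7.56, 7.20, 7.27, 7.50 and 7.01 in wild types. The groups overlapped on it, and the 2 bright probe sets differed by -0.14 and 0.0023. The Asph pair change was 0.50 ± 0.23 (adjusted p = 0.168) in line 20b and 0.36 ± 0.23 (adjusted p = 0.274) in line 41 with all wild types. Without wild types 1 and 2 it was 0.92 ± 0.17 (adjusted p = 5.29e-04) and 0.79 ± 0.17 (adjusted p = 0.00417), past the test in both. In Clcn1-null it was 2.10 ± 0.35 (adjusted p = 0.0406).

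Reep5, which shapes tubules of the reticulum, was lower on 1426376_at, at -0.51 and higher on 1438001_x_at and 1419398_a_at by 0.90 and 0.79. The pair difference was 1.89, 2.15, 2.08, 2.11 and 2.21 in Mbnl1-null mice, against 0.66, 0.57, 0.65, 0.88 and 0.60 in wild types. Its pair change stood at 1.29 ± 0.15 (adjusted p = 8.12e-07) in line 20b, 0.46 ± 0.15 (adjusted p = 0.0334) in line 41 and 1.48 ± 0.23 (adjusted p = 0.0343) in Clcn1-null. Speg, a kinase of the triad, was higher on 1448664_a_at by 0.84 with the other 2 probe sets at -0.29 and -0.24. Its pair change was 1.18 ± 0.23 (adjusted p = 6.68e-04) in line 20b and 0.23 ± 0.23 (adjusted p = 0.503) in line 41. Kcnc1, a voltage-gated potassium channel, was higher on 1456944_at by 0.87 and lower on 1443855_at, at -0.87. In line 20b its bright probe set rose by 0.80 ± 0.09 (adjusted p = 8.94e-06), the dim one did not pass at -0.32 ± 0.16 (adjusted p = 0.222), and the pair change was 1.12 ± 0.17 (adjusted p = 2.80e-05).

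Camk2a, a calcium and calmodulin dependent kinase, was lower on 1442707_at, at -1.36, on 1457311_at, at -0.59 and differed by -0.05 on 1443876_at. Its pair change of 0.47 ± 0.16 (adjusted p = 0.0527) in line 20b did not pass. It passed without wild types 1 and 2, with 0.61 ± 0.17 (adjusted p = 0.0203), and with pairs across arrays added (adjusted p = 0.0474), and in line 41 it was -0.30 ± 0.16 (adjusted p = 0.189). Spcs2, a subunit of signal peptidase, had 1 probe set that was higher and 1 that was lower. On 1423215_at it had 10.99, 11.30, 11.09, 11.04 and 11.04 in Mbnl1-null mice, against 10.10, 9.94, 9.93, 10.08 and 9.63 in wild types. On 1450907_at it had 10.11, 10.70, 10.26, 10.22 and 10.41 in Mbnl1-null mice, against 10.71, 10.74, 10.62, 10.74 and 10.65 in wild types. Every Mbnl1-null mouse was higher on 1423215_at than any wild type. The pair change came to 1.12 ± 0.10 (adjusted p = 1.08e-08) in line 20b and 0.73 ± 0.10 (adjusted p = 1.79e-05) in line 41, while 1450907_at passed in neither line, and 1423215_at rose by 1.16 ± 0.09 (adjusted p = 8.57e-08) and 0.70 ± 0.09 (adjusted p = 1.16e-04).

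Sdf4, a calcium-binding protein of the Golgi, was lower on 1455584_at, at -1.09, and that probe set fell in line 20b, at -1.15 ± 0.12 (adjusted p = 3.43e-06) and in line 41, at -0.69 ± 0.12 (adjusted p = 0.00193). Ccpg1, a receptor for autophagy of the reticulum, was higher on 1424420_at by 0.81 and lower on 1420127_s_at, at -0.48. Both passed in line 20b, with 0.72 (adjusted p = 0.00269) and -0.44 (adjusted p = 0.0041). Of the 7 members of this group on one array, 5 passed the pair test in line 20b and 4 in line 41, against 11.8% and 12.6% of all pairs tested.

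**Figure D4:**
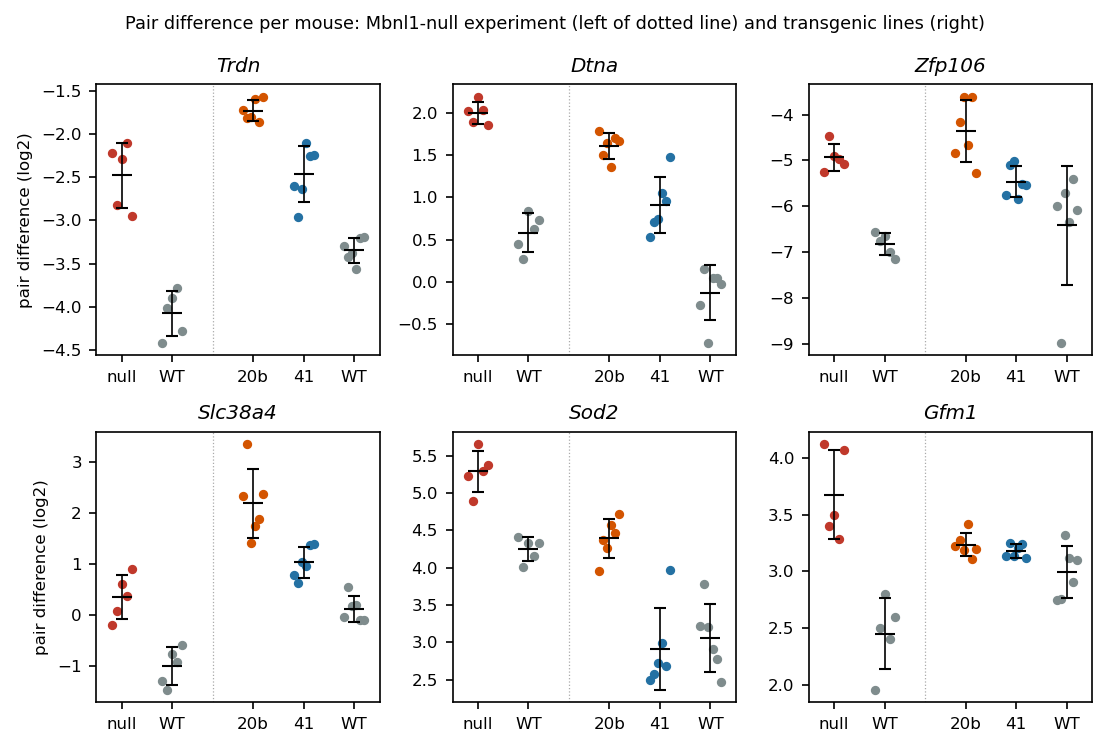
Points are the pair difference (highest minus lowest probe set, log2) of single mice for Trdn, Dtna, Zfp106, Slc38a4, Sod2 and Gfm1, with mean and SD as bars. Left of the dotted line are 5 Mbnl1-null and 5 wild-type mice, right of it 6 mice each of line 20b, line 41 and wild type. Trdn and Dtna lie above wild type in Mbnl1-null and both lines, Sod2 in Mbnl1-null and line 20b, and Gfm1 in Mbnl1-null.

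In transport and metabolism, both amino acid transporters were lower. Slc38a4, a neutral amino acid transporter, had 9.74, 9.86, 8.42, 9.35 and 8.44 in Mbnl1-null mice, against 11.39, 12.34, 11.30, 11.96 and 11.24 in wild types on 1428111_at. On 1448889_at it had 9.54, 9.95, 9.02, 9.72 and 9.34 in Mbnl1-null mice, against 10.10, 10.87, 10.54, 11.05 and 10.66 in wild types. Both were lower in every Mbnl1-null mouse, at -2.48 and -1.13. In line 20b the probe sets fell, at -2.66 ± 0.31 (adjusted p = 6.00e-06) and -0.59 ± 0.13 (adjusted p = 0.00394), and in Clcn1-null, at -3.96 ± 0.15 (adjusted p = 0.00168) and -2.38 ± 0.14 (adjusted p = 0.00276). The pair change stood at 2.07 ± 0.22 (adjusted p = 1.83e-07) in line 20b, 0.92 ± 0.22 (adjusted p = 0.00534) in line 41 and 1.58 ± 0.23 (adjusted p = 0.0265) in Clcn1-null. Slc16a10, an aromatic amino acid transporter, differed by -1.37, -0.83 and -0.07 on its 3 probe sets. Its pair change was 1.36 ± 0.18 (adjusted p = 6.92e-06) in line 20b, where 1434592_at fell and 1440569_at rose, and 0.07 ± 0.18 (adjusted p = 0.843) in line 41.

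Ckm, the muscle creatine kinase, had a bright probe set, 1417614_at, that differed by -0.07. A second, 1444643_at on the other array, had 10.76, 10.83, 10.82, 11.03 and 10.92 in Mbnl1-null mice, against 12.12, 12.15, 12.37, 12.17 and 12.50 in wild types. The groups did not overlap on it. It fell in line 20b, at -1.30 ± 0.09 (adjusted p = 1.91e-08) and in line 41, at -0.61 ± 0.09 (adjusted p = 3.40e-04). Sod2, the mitochondrial superoxide dismutase, was lower on 1417194_at and 1454976_at, at -0.81 and -0.61, and differed by 0.13 and 0.23 on its 2 bright probe sets. The pair change came to 1.33 ± 0.22 (adjusted p = 8.35e-05) in line 20b and -0.15 ± 0.22 (adjusted p = 0.668) in line 41.

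Nudt6, a Nudix hydrolase whose gene overlaps Fgf2 on the opposite strand, had the third largest spread. Its probe set 1424510_at had 4.62, 7.04, 5.62, 5.85 and 6.65 in Mbnl1-null mice, against 8.68, 8.84, 8.64, 8.48 and 8.76 in wild types. The other, 1456945_at, differed by 0.19. In line 20b 1424510_at fell, at -0.91 ± 0.12 (adjusted p = 3.16e-05) and in line 41, at -0.49 ± 0.12 (adjusted p = 0.0169). Gfm1, the mitochondrial translation elongation factor G, was lower on 1448381_at, with 6.67, 7.58, 7.84, 7.78 and 7.33 in Mbnl1-null mice, against 8.89, 8.74, 8.33, 8.82 and 8.81 in wild types, and differed by -0.05 on 1416570_s_at. It did not pass in either line, with pair changes of 0.25 ± 0.09 (adjusted p = 0.0778) and 0.19 ± 0.09 (adjusted p = 0.151). Without wild types 1 and 2 the value in line 20b was 0.12 ± 0.09 (adjusted p = 0.416). Osbpl6, an oxysterol-binding protein homologue, was lower on 1457881_at, at -1.04, and that probe set fell in line 20b, line 41 and Clcn1-null, at -0.76, -0.60 and -3.31 (adjusted p = 7.89e-05, 0.00226 and 0.00575). Its mate 1456495_s_at fell in Clcn1-null as well, at -2.20 (adjusted p = 0.00657), and passed in neither line. Txnl1, a thioredoxin-like protein, was lower on 1435235_at, at -0.63, with pair changes of 0.62 ± 0.15 (adjusted p = 0.00684) and 0.60 ± 0.15 (adjusted p = 0.00873) in lines 20b and 41. Of the 5 members of this group on one array, 4 passed in line 20b and 2 in line 41, against 11.8% and 12.6% of all pairs tested.

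Nudt6 and Gfm1 lie on the chromosome of Mbnl1, 83 protein-coding genes before and 30 after it in the gene order of RefSeq. That chromosome held 5 of 54 members (9.26%), against 148 of 2559 other genes (5.78%), the others being Tnik, Tpm3 and A930005H10Rik. Within 100 protein-coding genes to either side of Mbnl1, 24 genes could be compared and 2 were members.

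The next 6 members handle RNA or make protein. Zfp106, an RNA-binding zinc finger protein needed by motor neurons and muscle, had 4 probe sets. The dimmest, 1425098_at, had 8.74, 9.67, 9.05, 9.15 and 8.93 in Mbnl1-null mice, against 7.41, 7.02, 7.17, 6.93 and 6.64 in wild types. The brightest, 1425332_at, had 14.00, 14.12, 13.95, 14.11 and 14.01 in Mbnl1-null mice, against 13.98, 13.77, 13.81, 13.92 and 13.79 in wild types. The dim probe set was higher in every Mbnl1-null mouse, by 2.07, while the bright one differed by 0.18 and the others by 0.29 and 0.50. The pair difference in the lines was -5.28, -4.41 and -3.61 in line 20b, -5.84, -5.52 and -5.01 in line 41 and -8.98, -6.04 and -5.41 in wild types, as lowest, median and highest. Its pair change stood at 2.06 ± 0.40 (adjusted p = 7.67e-04) in line 20b and 0.96 ± 0.40 (adjusted p = 0.103) in line 41, and 1.53 ± 0.27 (adjusted p = 3.36e-04) in line 20b without wild types 1 and 2, of which mouse 2 was far below the rest.

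Snrpd3, a core protein of spliceosomal particles, was lower on 1449629_s_at, at -1.22 and differed by 0.32 on 1422884_at. Its pair change was 0.99 ± 0.28 (adjusted p = 0.0189) in line 20b and 0.13 ± 0.28 (adjusted p = 0.789) in line 41. Papola, the poly(A) polymerase that adds tails to new messages, differed by -0.44 and 0.62 on its 2 probe sets. The pair change came to 0.82 ± 0.18 (adjusted p = 0.00301) in line 20b and -0.16 ± 0.18 (adjusted p = 0.589) in line 41. Srpk2, a kinase of SR splicing factors, had 5 probe sets from -0.50 to 0.85, and none of them passed alone in line 20b. With arrays joined its pair change was 0.83 ± 0.16 (adjusted p = 3.98e-04) there. Hnrnpd, which binds AU-rich messages, was lower on 1457568_at, at -0.68, and that probe set fell in line 20b, at -0.71 ± 0.10 (adjusted p = 6.88e-05). Rps3, a protein of the small ribosomal subunit, was lower on the dim 1455600_at, at -1.05, and its bright probe set differed by 0.11. In line 20b these were -0.35 (adjusted p = 0.0433) and 0.20 (adjusted p = 0.0094). On one array, 3 of 3 members of this group passed in line 20b and 0 of 3 in line 41, against 11.8% and 12.6% of all pairs tested. In line 41 Zfp106 alone of the 3 had an unadjusted p under 0.05. Roles were assigned once the members were known, so the groups of members are not compared with each other.

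Among members of protein turnover and palmitoylation, Zdhhc18 and Fbxl17 had the widest spreads. Zdhhc18, a palmitoyltransferase, had 6.23, 4.95, 5.88, 5.50 and 5.96 in Mbnl1-null mice, against 8.45, 7.94, 7.69, 7.69 and 7.84 in wild types on 1455518_at. Its other probe set, 1433748_at, had 7.58, 8.06, 8.03, 7.55 and 7.60 in Mbnl1-null mice, against 7.57, 7.57, 7.24, 7.57 and 7.35 in wild types. In line 20b 1455518_at fell, at -1.62 ± 0.23 (adjusted p = 8.47e-05) while 1433748_at stood at 0.11 ± 0.12 (adjusted p = 0.581), and the pair change was 1.73 ± 0.20 (adjusted p = 3.92e-07), and 0.99 ± 0.20 (adjusted p = 0.00102) in line 41. Fbxl17, an F-box protein that picks substrates for ubiquitin ligase, had 8.06, 7.87, 8.26, 8.21 and 8.11 in Mbnl1-null mice, against 9.48, 9.40, 9.67, 9.50 and 9.73 in wild types on 1430241_at. On 1452860_at it had 10.33, 10.19, 10.38, 10.38 and 10.03 in Mbnl1-null mice, against 9.55, 9.89, 9.48, 9.74 and 9.68 in wild types. The probe sets moved in opposite directions, and no Mbnl1-null mouse overlapped a wild type on either. They did so too in line 20b, with -0.87 ± 0.11 (adjusted p = 1.95e-05) and 0.58 ± 0.06 (adjusted p = 2.80e-06), and in line 41, with -0.46 ± 0.11 (adjusted p = 0.0125) and 0.29 ± 0.06 (adjusted p = 0.00581). The Fbxl17 pair change was 1.45 ± 0.10 (adjusted p = 7.22e-11) in line 20b and 0.75 ± 0.10 (adjusted p = 1.16e-05) in line 41.

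Ctsc, the protease cathepsin C, was higher on 1416382_at, with 12.67, 12.59, 12.66, 12.49 and 12.28 in Mbnl1-null mice, against 11.10, 11.13, 11.47, 11.40 and 11.26 in wild types, and differed by -0.24 on 1437939_s_at. It rose on 1416382_at by 1.22 ± 0.11 (adjusted p = 2.85e-07) in line 20b and 0.56 ± 0.11 (adjusted p = 0.00326) in line 41. Znrf2, a ubiquitin ligase, was lower on 3 of 4 probe sets, at -1.30, -0.96 and -0.95, with -0.26 on the last. Its pair change stood at 0.76 ± 0.11 (adjusted p = 2.28e-05) in line 20b and 0.75 ± 0.11 (adjusted p = 5.49e-05) in line 41. The F-box proteins Fbxl20 and Fbxo31 had spreads of 1.10 and 1.04, and pair changes in line 20b of 0.77 ± 0.19 (adjusted p = 0.00535) and 1.15 ± 0.13 (adjusted p = 2.97e-07). Zdhhc3, a second palmitoyltransferase, was lower on 1455368_at, at -0.98, and that probe set fell in line 20b, at -0.77 ± 0.12 (adjusted p = 1.92e-04). Ube2b, a ubiquitin-conjugating enzyme, was lower, at -1.13 on the dim 1430177_at, with the wild types spread over an SD of 0.51. In line 20b its pair change did not pass, at 0.26 ± 0.31 (adjusted p = 0.656). On one array, 3 of 3 members of this group passed in line 20b and 3 of 3 in line 41, against 11.8% and 12.6% of all pairs tested.

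Signalling and nuclear members included Smad3, which carries TGF-beta signals to the nucleus. All 3 of its probe sets were lower, at -2.54, -1.17 and -1.15. On the first, 1450471_at, it had 5.21, 5.54, 4.87, 5.58 and 5.43 in Mbnl1-null mice, against 8.0, 7.91, 7.75, 8.0 and 7.67 in wild types. The highest Mbnl1-null value there was far below the lowest wild type. In line 20b these fell, at -2.60 ± 0.34 (adjusted p = 2.56e-05), -1.20 ± 0.12 (adjusted p = 1.41e-06) and -1.17 ± 0.11 (adjusted p = 8.77e-07). In line 41 none passed, with 0.10, 0.14 and -0.30. The pair change in line 20b minus that in line 41 was 1.82 ± 0.30 (adjusted p = 3.64e-04).

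Nup50, a nucleoporin, was lower on 1428328_at, with 6.18, 6.96, 6.73, 5.42 and 5.14 in Mbnl1-null mice, against 7.53, 7.87, 7.11, 7.78 and 7.37 in wild types, and differed by 0.15 on 1450722_at. Its pair change was 0.59 ± 0.20 (adjusted p = 0.0553) in line 20b, not past the test (adjusted p = 0.0495 with pairs across arrays added, which passed), and 0.80 ± 0.20 (adjusted p = 0.00848) in line 41, which passed. Snx13, a sorting nexin, was lower on 1435251_at, at -0.48 and higher on 1454938_at and 1444141_at by 0.63 and 0.71. Its pair change came to 1.12 ± 0.12 (adjusted p = 1.20e-07) in line 20b and 0.85 ± 0.12 (adjusted p = 1.79e-05) in line 41. Mllt3, a reader of acetylated histones in the super elongation complex, was higher on 1453622_s_at by 0.92, and that probe set rose by 0.89 ± 0.06 (adjusted p = 3.37e-08) and 0.60 ± 0.06 (adjusted p = 1.17e-05) in lines 20b and 41. Tcf25, a protein of ribosome quality control, was lower on 1437204_a_at, at -0.97, and its pair change was 1.06 ± 0.16 (adjusted p = 2.96e-05) in line 20b.

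Hcfc2, a relative of a chromatin cofactor, had probe sets at -0.59, 0.15 and 0.60, and a pair change of 0.80 ± 0.12 (adjusted p = 4.35e-05) in line 20b. Tnik, a kinase of Wnt signalling, was higher on 1455256_at by 1.01. Its pair change stood at 0.49 ± 0.15 (adjusted p = 0.0227) in line 20b, or 0.50 ± 0.17 (adjusted p = 0.0536) without wild types 1 and 2, and -0.04 ± 0.15 (adjusted p = 0.894) in line 41. Ppp2r5c, a regulatory subunit of protein phosphatase 2A, had 4 probe sets from -0.57 to -0.20 and 1 at 0.52. Its pair change was 0.48 ± 0.10 (adjusted p = 0.00143) in line 20b and 0.33 ± 0.10 (adjusted p = 0.0234) in line 41, the second lost without wild types 1 and 2, at 0.27 ± 0.11 (adjusted p = 0.125). Phf20l1, a chromatin reader, was lower on 1437563_at and 1418960_at, at -0.81 and -0.74 and differed by 0.35 on 1454939_at. Tmpo, thymopoietin of the nuclear lamina, was lower on 1426349_s_at and 1452036_a_at, at -0.88 and -0.56, and both fell in line 20b, at -1.06 ± 0.12 (adjusted p = 4.63e-06) and -0.74 ± 0.10 (adjusted p = 2.14e-05). Of the 7 members of this group on one array, 6 passed the pair test in line 20b and 4 in line 41, against 11.8% and 12.6% of all pairs tested.

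The last 4 members were Ighm, the constant region of the immunoglobulin mu heavy chain, and 3 transcripts with no known protein. Ighm had 11.29, 10.89, 11.54, 11.76 and 10.95 in Mbnl1-null mice, against 13.22, 13.52, 13.27, 13.30 and 13.29 in wild types on 1427329_a_at. On 1427351_s_at it had 10.44, 9.39, 10.96, 10.91 and 9.71 in Mbnl1-null mice, against 9.0, 9.07, 8.97, 8.70 and 8.65 in wild types. The probe sets moved in opposite directions with no overlap between groups. In the lines, the lowest, median and highest pair difference was 1.30, 1.55 and 1.62 in line 20b, -0.63, -0.06 and 0.65 in line 41 and -2.58, -1.96 and -1.48 in wild types. The pair change, 3.51 ± 0.20 (adjusted p = 5.76e-12) in line 20b and 1.97 ± 0.20 (adjusted p = 6.93e-07) in line 41, was the largest of all members in both lines. Summed over the 5 macrophage and leukocyte markers found of 7, intensity was 4551 to 8809 in Mbnl1-null and 3163 to 5453 in wild types. In the experiment on the lines it was 6652 to 10465 in line 20b, 9141 to 15221 in line 41 and 6313 to 10833 in wild types. In each of these 3 groups 1 marker, Ptprc, lay under the floor. No marker specific to B cells was on that list, and the part of blood cells in the Ighm values was not tested.

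Meg3, an imprinted long noncoding RNA, was higher on all 5 probe sets, from 0.31 to 1.95. In line 20b all 5 rose, by 1.38 to 3.11, with 3.11 ± 0.28 (adjusted p = 3.31e-07) for the highest. In line 41 none passed, with values from -0.79 to 0.49, yet the pair change of 1.28 ± 0.15 (adjusted p = 3.10e-06) did. Atcayos, named as an antisense transcript of Atcay, was higher on 1458369_at, with 10.97, 11.44, 11.06, 11.15 and 10.92 in Mbnl1-null mice, against 9.65, 8.78, 9.65, 9.27 and 9.28 in wild types, and differed by -0.25 on 1430787_at. It rose on 1458369_at in line 20b by 1.45 ± 0.26 (adjusted p = 6.91e-04) and in Clcn1-null by 1.26 ± 0.22 (adjusted p = 0.04), and stood at 0.25 ± 0.26 (adjusted p = 0.625) in line 41. The RIKEN transcript A930005H10Rik was higher on 1441263_a_at by 0.89, and its pair change was 0.72 ± 0.13 (adjusted p = 1.79e-04) in line 20b and 0.64 ± 0.13 (adjusted p = 0.00109) in line 41. Of the 3 members among these 4 on one array, 3 passed in line 20b and 2 in line 41, against 11.8% and 12.6% of all pairs tested.

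Which probe set carried the difference was then asked in each line, taking for each member the probe set farther from 0 in Mbnl1-null and its mate. In line 20b the farther one changed in the Mbnl1-null direction in 47 of 54 members and in the other direction in 0, where 16.8% of all 27330 probe sets were called, 7.35% higher and 9.49% lower. Its mate was not called in 29 of the 47, moved the same way in 7 and the opposite way in 11. The 7 with both the same way were Zfp106, Meg3, Smad3, Slc38a4, Pdlim7, Fhl1 and Tnik. Of the 33 farther probe sets that were lower in Mbnl1-null, 27 fell in line 20b, and of the 21 that were higher, 20 rose. In line 41 the farther probe set changed in the Mbnl1-null direction in 24 of 54 members and in the other in 0, against 8.47% of probe sets in either direction, and its mate moved the opposite way in 3, Ighm, Fbxl17 and Nin. Other scalings moved the share of rising and falling calls over all probe sets in line 20b, with 2009 rising and 2594 falling here, 2448 and 2208 after quantile normalisation and 2690 and 2160 after a median shift.

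Line 20b and line 41 were compared directly on the same pairs. The pair change was larger in line 20b in 31 of 33 members, and this was not counted over all pairs. The difference between the lines passed the test in 18 members, in each of them with line 20b ahead. Of all pairs tested, 8.84% did so in this direction, and 4.14% went the other way, against 0 members. With pairs across arrays added, 29 of 54 passed, against 8.69%. It was 1.54 ± 0.20 (adjusted p = 8.20e-05) for Ighm, 1.48 ± 0.22 (adjusted p = 1.05e-04) for Sod2, 1.30 ± 0.18 (adjusted p = 8.20e-05) for Slc16a10 and 0.98 ± 0.18 (adjusted p = 0.00104) for Papola. Without wild types 1 and 2 the difference of Snrpd3 no longer passed, at 0.86 ± 0.29 (adjusted p = 0.0534), and that of Zfp106 did, at 1.10 ± 0.24 (adjusted p = 0.00378). The smallest differences were those of Znrf2, at 0.02 ± 0.11 (adjusted p = 0.939), and Txnl1, at 0.02 ± 0.15 (adjusted p = 0.953). Of the 33 members, 16 passed in both lines, 11 in line 20b alone, 2 (Nup50 and Tpm1) in line 41 alone, and 4 (Tpm3, Camk2a, Asph and Gfm1) in neither. The same split was not counted over all pairs tested, so nothing is read from it. Summed endothelial and nerve markers overlapped between the 2 lines. The 6 of 6 endothelial markers, all above the floor, summed to 5041 to 6981 in line 20b, 5794 to 7861 in line 41 and 8167 to 11012 in wild types, against which neither line overlapped. The 3 nerve and Schwann markers found of 5 summed to 7017 to 10798 in line 20b, 4716 to 12489 in line 41 and 10873 to 16363 in wild types, with 1 marker under the floor in line 20b and in wild types. On the nerve list line 20b lay below all wild types and line 41 overlapped them. The part of either list in the pair changes was not tested.

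In Clcn1-null muscle few members passed the test. Of 27 members tested on one array, 3 changed in the Mbnl1-null direction (Reep5, Slc38a4 and Asph) and 0 in the other, where 0.55% of all 1999 pairs did and 0.3% went the other way. The median pair change of the 27 was 0.53, against 0.082 for the other pairs, and it was positive in 20 of 27, against 58.7% of the other pairs. With 3 mice a group the count moved with single mice: it was 0 without any one BALB wild type or without Clcn1-null mouse 2, and 10 without Clcn1-null mouse 3. At an unadjusted p under 0.05, 12 of 27 had the Mbnl1-null direction and 1, Snrpd3, the other, against 10.9% and 4.7% of all pairs. Trdn, whose pair change was -1.13 ± 0.50 (adjusted p = 0.336), and Dtna, with 0.33 ± 0.63 (adjusted p = 0.819), did not pass. Over single probe sets, 4.32% were called there, and the member probe set farther from 0 changed in the Mbnl1-null direction in 8 of 49. Leukocyte markers summed to 14756 to 22104 in Clcn1-null and 7074 to 10183 in BALB wild types, and adipocyte markers to 87976 to 101455 in Clcn1-null and 46434 to 62746 in BALB wild types. The sums of the fibroblast, nerve and smooth muscle lists were likewise higher in all 3 Clcn1-null mice, and their part in these values was not tested.

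Gene lists assembled for this subject held 0 to 4 members each, where 2.06% of all genes compared were members. The lists were chosen with earlier results of these data known, and membership rests on the values the rule used. Nothing is therefore read from these shares. Of 46 transcripts listed as splicing targets of MBNL1 or as mis-spliced in myotonic dystrophy, 28 had enough probe sets to be compared. Of these, 3 were members (Dtna, Tpm1 and Tpm3, 10.7%), with a median spread of 0.20 over the 28. Of 30 splicing regulators, 15 could be compared and 0 were members (median spread 0.25). Of 22 factors of 3' end processing, 10 could be compared and 1 was a member, Papola (10%, median spread 0.39). Of 35 sarcomere genes with several isoforms or polyadenylation sites, 12 could be compared and 4 were members, Tpm1, Tpm3, Pdlim7 and Fhl1 (33.3%, median spread 0.30). The median over all 2616 genes was 0.13.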

How the data were processed

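Quadriceps RNA of 34 mice was measured on 58 arrays. The authors deposited one linear intensity per probe set, made with GCRMA per the submitters' processing notes, with no version or settings given in the sources used here. The experiments were treated apart, since their array medians differ, and arrays give no counts, so precision is limited by the number of arrays. The deposited intensities were turned into log2 values. The 45037 probe sets were named by the supplied platform annotation, and 34945 had exactly 1 symbol.

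Members were chosen by the stated rule in the Mbnl1-null experiment, and the members and gene lists were chosen with earlier results of these data known. In the other experiments the pair differences, and apart from them all probe sets, were fitted by group means in limma 3.58.1 under R 4.3.3, using lmFit and a trended eBayes. A probe set was tested when it reached a log2 intensity of 5 (an intensity of 32) on a number of arrays no smaller than the smallest group. Tests were two-sided, with Benjamini-Hochberg adjustment over all features of a fit and a threshold of 0.05. Errors are SD for levels and SE for differences. The labels number the mice, and nothing says that arrays of a group came from other than separate animals. Genes named in full were those with the 15 largest spreads, those called in a line, those of the MBNL1 list, those near the limit and those near Mbnl1, and the rest are given more briefly. Roles were assigned by hand once the members were known. Alternatives covered normalisation, filters, variance models, wild types, probe set classes and left-out mice. The fits were tested on simulated data.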

Additional observations from a re-analysis of the deposited data

Results flagged for a closer look

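In 12 of 207 groups of 5 or 6 mice examined, 1 mouse's pair difference stood apart from the rest of its group by Dixon's criterion, and chance alone flags about 1 group in 20. In Mbnl1-null mice these were Phf20l1 in mouse 2 (0.66), Rps3 in mouse 5 (8.77) and Fhl1 in mouse 1 (-5.65). In wild types of the same experiment they were Nin in mouse 5 (-1.24), Reep5 in mouse 4 (0.88), Rps3 in mouse 5 (6.73) and Tnik in mouse 5 (-0.65). In line 20b it was Camk2a in mouse 2 (-1.76). In line 41 they were Kcnc1 in mouse 1 (1.34), Nup50 in mouse 5 (1.75) and Sod2 in mouse 6 (3.97). In wild types of the experiment on the lines it was Zfp106 in mouse 2 (-8.98), one of the mice with low slow-fibre genes.

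For 18 members the pair change differed between the lines by the test of that difference, with line 20b ahead in each. The difference, line 20b minus line 41, was 1.54 for Ighm, 1.48 for Sod2, 1.30 for Slc16a10 and 1.15 for Slc38a4. It was 0.98 for Papola, 0.95 for Speg, 0.94 for Atcayos, 0.86 for Snrpd3 and 0.83 for Reep5. It was 0.77 for Camk2a, 0.74 for both Trdn and Zdhhc18, 0.70 for Dtna, 0.69 for Fbxl17, 0.63 for Tcf25, 0.53 for Tnik, 0.45 for Hcfc2 and 0.40 for Spcs2. The Camk2a difference stands on a pair change that passed in neither line among pairs on one array, and that of Snrpd3 was lost in 11 of the leave-one-out fits and without wild types 1 and 2 together.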

How the results depend on the processing

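Over all alternatives, 262 of 298 counts stayed within 1.5 times the reported one and 36 did not. At a threshold of 0.01 the pairs called fell to 174 in line 20b, 165 in line 41, 124 between the lines and 0 in Clcn1-null, members called in Clcn1-null to 0, and probe sets called to 2594, 922 and 175 in line 20b, line 41 and Clcn1-null, since the threshold is stricter. Without wild types 1 and 2, line 41 had 233 pairs and 1433 probe sets called, and 18 members, the same count as with all mice. With pairs across arrays added, 49, 31 and 29 members were called in line 20b, line 41 and between the lines, since more were tested. A level of at least 8 left 29 members. In Clcn1-null, array weights gave 266 pairs with 14 members and 7329 probe sets, no filter gave 650 probe sets, and the 2 brightest probe sets gave 1 member; the cause was not tested.

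Values reversed with the 2 brightest probe sets for Asph (-0.36) and Reep5 (-0.15) in Clcn1-null, Cdc42 (-0.0515), Speg (-0.0344) and Txnl1 (-0.12) in line 20b, Cdc42 in line 41 (-0.0318) and Slc16a10 between the lines (-0.0837), and for Asph in Clcn1-null also without _x_at and _s_at probe sets (-0.36); the pair then holds other probe sets.

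Leave-one-out fits called 246 to 308 pairs in line 20b with 25 to 30 members, 290 to 433 in line 41 with 16 to 19, and 201 to 318 between the lines with 17 to 20. They called 3980 to 4778 and 1673 to 2346 probe sets in lines 20b and 41. Clcn1-null ranged from 0 to 133 pairs, 0 to 10 members and 47 to 2340 probe sets, and the member choice from 51 to 67. The genes chosen changed more than this count. Of the 54 members, 34 were kept whichever mouse was left out, and 13 under all 16 alternatives of the choice. Tmpo, the nearest to the limit, was kept in 7 of the 16. Calls lost without 1 mouse were Snrpd3 (wild type 5 or line 20b mouse 2, at 0.88 each) and Tnik (wild type 5, 0.38) in line 20b, and Ppp2r5c, Reep5 and Tpm1 in line 41, with lowest values of 0.28, 0.37 and 0.34. Between the lines, Hcfc2 was lost without line 20b mouse 6, at 0.38.

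Mice of the same number in different groups were correlated in case the numbers pair them. In the experiment on the lines the values ran from -0.16 to 0.37, with 10 of 36 over 0.1. In the Clcn1-null experiment they ran from -0.19 to 0.17, with 1 of 6 over 0.1. Mice of different numbers were not correlated, so these values cannot decide whether the numbers pair the mice. With the number as a replicate block, 280, 348 and 273 pairs were called in line 20b, line 41 and between the lines, with 27, 18 and 18 members, and 12 pairs, 2 members and 243 probe sets in Clcn1-null. Member calls lost under the block were Reep5 and Slc38a4 in Clcn1-null, Reep5 in line 41 and Snrpd3 between the lines. Signal over background limits the dimmer probe set of a pair, whose median wild-type log2 level was 8.0 in members and 8.72 in other genes.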
